A study of Mus musculus with 24 samples.

Results

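The comparison set embryonic against wound fibroblasts in wild-type (WT) cells through histone H3 acetylated at lysine 27 (H3K27ac), a mark of active promoters and enhancers. Its members were the 44918 H3K27ac summits of WT mouse embryonic fibroblasts (MEFs) and the 33465 summits of WT wound-healing fibroblasts, 78383 of the 309261 H3K27ac summits in the 7 lists of the series. A summit, the single base where a ChIP-seq peak is highest, was called shared when the other list held a summit within 500 bp and was otherwise called MEF-only or wound-only. Both cultures came from C57BL/6 mice. The MEFs were taken from WT embryos at embryonic days 10 to 13, and the wound-healing fibroblasts from dorsal skin wounds of mice at day 10 after wounding. Cells of both kinds had been immortalised with the human papillomavirus genes E6 and E7 and grown in DMEM with 10% FBS. WT wound-healing fibroblasts carried a non-targeting guide RNA (SgNS) according to the labels, which do not say whether WT MEFs did. Age at isolation, tissue of origin and culture differed together between the cell types and cannot be told apart, and each cell type was 1 library. No difference between them therefore has a replicate check, and every interval given is a Wilson 95% interval for counting error over summits only.

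Further lists served as a second look at the same summits. They were H3K27ac lists of MEFs and wound-healing fibroblasts in which Prrx1, a homeodomain transcription factor of mesenchymal cells, had been deleted with a guide RNA by CRISPR/Cas9 (SG), of MEFs of a further genotype called KI, read here as MEFs from the Prrx1 mutant mice that the labels name, and of cancer-associated fibroblasts from MMTV-PyMT mammary tumours in FVB/NJ mice (MMTV-CAFs), WT and SG. The SG lists of MEFs and wound-healing fibroblasts, called the SG pair, repeat the comparison of cell types in other libraries and in cells without Prrx1, so library and genotype differ from the WT pair at the same time. Each of these was also 1 library.

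H3K27ac is deposited on nucleosomes beside active promoters and enhancers. Promoters are largely active in common across related cell types, whereas distal enhancers differ more from one cell type to the next, and clusters of enhancers often lie at genes of cell identity. Fibroblasts keep the Hox code of the body region they came from, and wound fibroblasts can become contractile, matrix-producing myofibroblasts under TGF-beta signalling.

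The sequences below show the 3 strongest summits of each cell type that met the strictest description of a type-only distal element. Each lay more than 1 kb from any transcription start site (TSS) of a protein-coding gene and outside exons, had no summit of the other WT list within 5 kb, was present in the SG list of its own cell type within 500 bp, and had no summit of the other SG list within 5 kb. Without the exon condition, 2343 MEF and 586 wound summits met it. Each window holds 201 bases centred on the summit, read 5′ to 3′ on the plus strand of NCBIM37 (mm9) and named by its nearest gene. Capitals mark letters of the motifs searched on both strands, and marked motifs do not overlap in these 6 windows.
MEF, Adamts5 side, chr16:86124153-86124353: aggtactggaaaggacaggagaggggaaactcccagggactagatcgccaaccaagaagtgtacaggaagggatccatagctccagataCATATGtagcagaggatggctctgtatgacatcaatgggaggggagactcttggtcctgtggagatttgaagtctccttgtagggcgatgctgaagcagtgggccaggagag
MEF, Slc1a3 side, chr15:8757026-8757226: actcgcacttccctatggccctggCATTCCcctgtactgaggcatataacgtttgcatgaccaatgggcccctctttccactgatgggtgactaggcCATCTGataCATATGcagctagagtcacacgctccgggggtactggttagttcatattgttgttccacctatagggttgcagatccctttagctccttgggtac
MEF, Slc28a1 intron, chr7:88278141-88278341: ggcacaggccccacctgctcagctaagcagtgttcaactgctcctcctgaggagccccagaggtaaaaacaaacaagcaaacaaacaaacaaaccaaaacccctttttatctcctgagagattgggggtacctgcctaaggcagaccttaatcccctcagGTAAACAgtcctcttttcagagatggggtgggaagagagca
Wound, Plec intron, chr15:76020061-76020261: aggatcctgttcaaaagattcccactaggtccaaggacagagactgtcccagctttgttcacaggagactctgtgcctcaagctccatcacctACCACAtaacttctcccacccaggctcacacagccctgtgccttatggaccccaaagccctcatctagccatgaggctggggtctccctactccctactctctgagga
Wound, Kdr side, chr5:76404194-76404394: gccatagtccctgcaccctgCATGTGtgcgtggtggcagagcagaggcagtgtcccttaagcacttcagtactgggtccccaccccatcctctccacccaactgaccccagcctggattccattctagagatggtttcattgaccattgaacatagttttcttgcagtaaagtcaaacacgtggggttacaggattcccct
Wound, Cpne7 intron, chr8:125659601-125659801: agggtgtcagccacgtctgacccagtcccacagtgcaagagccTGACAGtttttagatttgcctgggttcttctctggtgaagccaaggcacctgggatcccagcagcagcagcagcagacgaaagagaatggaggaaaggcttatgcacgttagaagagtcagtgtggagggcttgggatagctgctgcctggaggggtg

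The Adamts5 window, 223 kb from the TSS of an aggrecan-cleaving protease, carried 1 Twist E-box word (CATNTG), and the Slc1a3 window, 96.4 kb from the TSS of a glutamate transporter gene, carried 2 Twist E-box words and 1 TEAD word (GGAATG). The Slc28a1 window, in an intron 18.5 kb from the nearest TSS, held 1 Fox word (GTAAACA). Among the wound windows, the Plec window held 1 Runx word (TGTGGT), the Kdr window, 29.8 kb from the TSS of the VEGF receptor 2 gene, held 1 Twist E-box word, and the Cpne7 window held 1 Meis word (TGACAG). Such words are common: of all distal windows, CATNTG lay in 40.2% in MEFs and 38.4% in wound-healing fibroblasts, TGTGGT in 14.7% and 15.3%, TGACAG in 14.9% and 15.5%, GGAATG in 11.8% and 11.5%, and GTAAACA in 2.65% and 2.35%. The match is a description of the letters and not of binding. A Prrx1 summit of MEFs lay within 500 bp of the Slc1a3 summit, and a Prrx1 summit of wound-healing fibroblasts within 500 bp of the Cpne7 summit.

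The label of fibroblast was checked against marker genes by giving each summit to its nearest protein-coding TSS within 100 kb. Of 12 fibroblast markers, 11 held a summit, with 90 MEF and 100 wound summits in all. The exception, Fn1 (fibronectin), held a promoter summit in both lists, but a neighbouring gene with start sites on either side of that of Fn1 received them. Dcn (decorin) and Lum (lumican), small proteoglycans of dermis and other connective tissue, held 9 and 4 summits in MEFs and 0 in WT wound-healing fibroblasts, and Thy1 had a promoter summit in MEFs alone. On the wound side of the same list, Col1a2 held 14 and 35 summits, Col1a1 12 and 21, Pdgfrb 7 and 11 and Pdgfra, a receptor of most fibroblasts, 2 and 4, with a promoter summit of Pdgfra in wound-healing fibroblasts alone. In all, 3 fibroblast markers were richer by 3 or more type-only summits in MEFs and 3 in wound-healing fibroblasts, against 12% and 3.52% of all loci, with 2 and 4 with lists of equal size and 5 and 0 in the Prrx1-deleted (SG) pair, so that the balance was not stable. Markers of immune cells (0 of 6), skeletal muscle (0 of 4) and adipocytes (0 of 4) held no summit in either WT list. Of the neural markers, Neurod1 held 4 summits in MEFs and 0 in wound-healing fibroblasts, and the melanocyte, Schwann and pluripotent lists each had 1 gene with a summit, 1 in each WT list. Keratinocyte markers held summits at 3 of 7 genes, 9 in MEFs and 7 in wound-healing fibroblasts, of which Trp63 had 5 in each. In the wound SG list, which is used below as a second look, Trp63 held 24 summits and the macrophage marker Cd68 held 3. Endothelial markers held summits at 5 of 5 genes, 16 in MEFs and 20 in wound-healing fibroblasts, and 15 of the latter lay at Kdr. The part of other cell types in the results was not tested, and in bulk chromatin fewer cells with a mark and less mark per cell cannot be told apart.

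Prrx1 itself carried H3K27ac in both WT cultures. Its locus held 21 summits in WT MEFs, 12 in WT wound-healing fibroblasts, 18 in MEF SG, 15 in MEF KI and 12 in wound SG. Of these, 14 were MEF-only and 4 wound-only. A promoter summit was listed in WT MEFs and not in WT wound-healing fibroblasts, while an H3K4me3 region, a mark of promoters, covered the TSS in both.

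In the lists as deposited, type-only summits were more frequent in MEFs. There were 21635 MEF-only summits, 48.2% of the MEF list (47.7 to 48.6%), and 10158 wound-only summits, 30.4% of the wound list (29.9 to 30.8%). The MEF list was longer, and after both lists were reduced to equal size by taking the strongest summits the shared share was 62.7% in MEFs and 63.5% in wound-healing fibroblasts, so the unequal type-only shares went with the unequal list lengths. The SG pair, with 43019 and 43058 summits, had type-only shares of 42.6% and 42.7%.

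The distance of type-only summits from the other list was compared next, with the MEF list being the longer one. Of the MEF-only summits, 4295 (19.9%) had a wound summit no more than 1 kb away and 12521 had none within 5 kb, a stricter definition chosen after the data had been seen. Of the wound-only summits, 4146 (40.8%) had a MEF summit no more than 1 kb away and 2092 had none within 5 kb. Summits beyond 5 kb made up 27.9% of the MEF list and 6.25% of the wound list. In the SG pair, with lists of nearly equal length, 6785 MEF and 7162 wound summits lay beyond 5 kb, so the gap between the cell types was not seen there. At the border of the 500 bp rule, the 1206 MEF summits 401 to 500 bp from a wound summit had a median −log10 p, the peak caller's score of enrichment, of 20.4, and the 1253 summits just outside, up to 600 bp away, had 16.6. For wound summits these medians were 13.5 (1210 summits) and 12.6 (1180 summits).

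Type-only summits were mostly distal, and shared summits were at promoters as often as not. Within 1 kb of a TSS lay 2529 MEF-only summits (11.7%) and 2042 wound-only summits (20.1%), against 51.9% and 51.6% of the shared summits of the lists. In the SG pair the promoter shares of the type-only summits were 14.6% and 15.0%, so both stood below the shared summits again but the gap between the cell types was not seen. Seen from the other side, 63.0% of distal MEF summits were MEF-only against 17.3% of promoter summits, and 41.8% of distal wound summits were wound-only against 14.5% of promoter summits. The median MEF-only summit stood 25.1 kb from a TSS, and the median wound-only summit 7.35 kb. Distal MEF-only summits were 49.5% intergenic, 47.2% intronic and 3.33% exonic, while distal wound-only summits were 33.4% intergenic, 58.2% intronic and 8.48% exonic. The median GC content was 47.3% in distal MEF-only windows and 51.2% in distal wound-only windows.

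Weak summits were type-only far more often than strong summits. From the weakest to the strongest quartile of −log10 p within each list, the type-only share was 80.0%, 66.5%, 35.8% and 10.3% in MEFs and 52.3%, 37.9%, 21.5% and 9.73% in wound-healing fibroblasts. In the top quartile, distal summits were still type-only in 18.4% and 22.1% of cases, promoter summits in 5.92% and 5.80%. The cell types were far apart in the weakest quartile and close together in the strongest. The median −log10 p was 12.3 for MEF-only and 31.2 for shared MEF summits, and 10.8 for wound-only and 18.2 for shared wound summits. The wound list held only 1030 different −log10 p values against 10284 in the MEF list, so ranks were coarser in it.

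**Figure D1:**
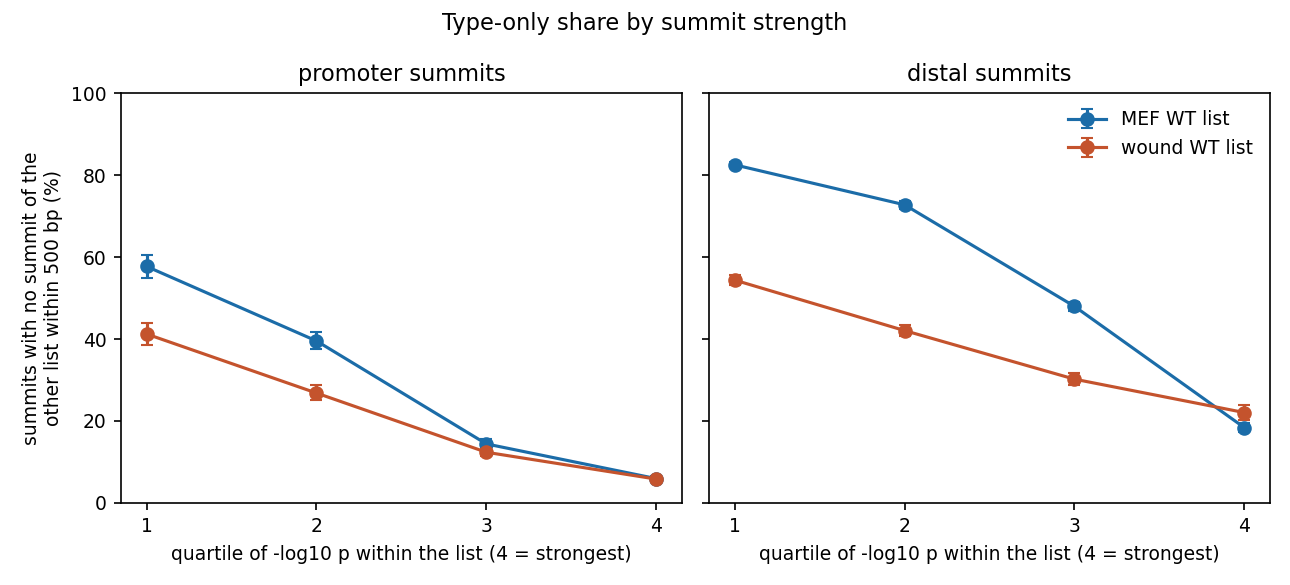
Share of summits with no summit of the other WT list within 500 bp (percent, y axis), by quartile of −log10 p within each list (x axis, 4 being the strongest), for promoter summits (left) and distal summits (right) of WT MEFs and WT wound-healing fibroblasts; bars are Wilson 95% intervals for counting error. The share is lower in each stronger quartile, reaching 5.92% and 5.80% at promoters and 18.4% and 22.1% at distal summits.

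The strongest type-only summits showed how the rule treats strong regions. The first distal MEF-only summit, nearest to Cd69 (a lymphocyte activation antigen), had a −log10 p of 124 and stood 1.68 kb from a wound summit, and the next ones, nearest to Rb1cc1, Dnm1, Emx2 and Rpl30-ps6, stood 0.899, 0.896, 0.880 and 0.546 kb from one. Strong MEF-only promoter summits lay at Rnd3 (a small GTPase that opposes contraction, −log10 p of 119), Snx9, Tgif1 and Tanc1, 0.501 to 1.24 kb from a wound summit. Strong distal wound-only summits, nearest to BC032203, Mrpl33 and Nfix, were 0.525 to 4.58 kb from a MEF summit. Of the strongest wound-only promoter summits, those of Brd2, Hmga2, Rxrb and Eif3b were 0.514 to 1.66 kb from a MEF summit. The exception was Hoxc10, a posterior Hox gene, whose promoter summit of −log10 p 71.7 stood 9.75 kb from the nearest MEF summit. Apart from Hoxc10, all of these strong type-only summits thus had a summit of the other cell type within 5 kb.

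With the other list beyond 5 kb, the leading summits were of another kind. In MEFs the strongest distal summits included those near Adamts5 (−log10 p of 96.0, too far from its TSS to count in the locus totals below), Bmper (78.4), which encodes a secreted BMP-binding protein, and Slc1a3 (73.1), and the strongest promoter summits included Fst (61.4), the gene of the activin antagonist follistatin, and Ephb2 (49.4), an ephrin receptor gene. In wound-healing fibroblasts they included those near Nfix (51.6), a nuclear factor I gene, Col1a1 (45.3), a chain of type I collagen, and Kdr (35.8), and at the promoters of Hoxc10 (71.7 and 64.8), Lrp1 (56.8), Eng (46.6), which encodes the TGF-beta co-receptor endoglin, and Kdr (41.6).

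The same summits were looked for in the further lists. A summit of the MEF SG list lay within 500 bp of 50.1% of MEF-only summits (49.4 to 50.8%), and a summit of the wound SG list, the other cell type, of 34.7%, with an interval from 34.0 to 35.3%. For wound-only summits the wound SG list gave 42.4% (41.5 to 43.4%) and the MEF SG list 29.5% (28.6 to 30.4%). Between the SG lists, each class was thus found more often in that of its own cell type. Many summits were in neither SG list, 37.7% of MEF-only and 43.6% of wound-only summits, and the part that was in the own SG list and not in the other was 27.6% and 26.9%. MEF KI, the shortest list with 29325 summits, held 24.0% of MEF-only and 27.1% of wound-only summits, so in this library MEF-only summits were not found more often than wound-only summits. MMTV-CAF WT, of another strain and tissue, held 45.8% of MEF-only and 41.4% of wound-only summits, and MMTV-CAF SG held 43.3% and 42.2%. Wound-only summits were thus found about as often in the MMTV-CAF lists as in wound SG. MEF-only summits were found less often in MEF KI than in wound SG. Shared summits were found far more often, those of the MEF list in 85.1% in MEF SG, 79.2% in wound SG and 63.2% in MEF KI.

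The separation was wider for summits with the other WT list beyond 5 kb on the wound side. Of these 2092 wound summits, 57.7% were in wound SG, 28.4% in MEF SG and 12.8% in MEF KI. Of the 12521 such MEF summits, 48.3% were in MEF SG, 30.7% in wound SG and 21.7% in MEF KI. Among MEF-only summits, strength went with presence in both SG lists: from the weakest to the strongest quartile, 36.6%, 51.2%, 70.4% and 76.8% of MEF-only summits were in MEF SG and 26.4%, 35.3%, 47.2% and 51.0% were in wound SG. Among wound-only summits the shares were 38.6%, 43.2%, 48.0% and 47.8% in wound SG and 27.4%, 31.7%, 30.6% and 29.6% in MEF SG, a smaller range.

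**Figure D2:**
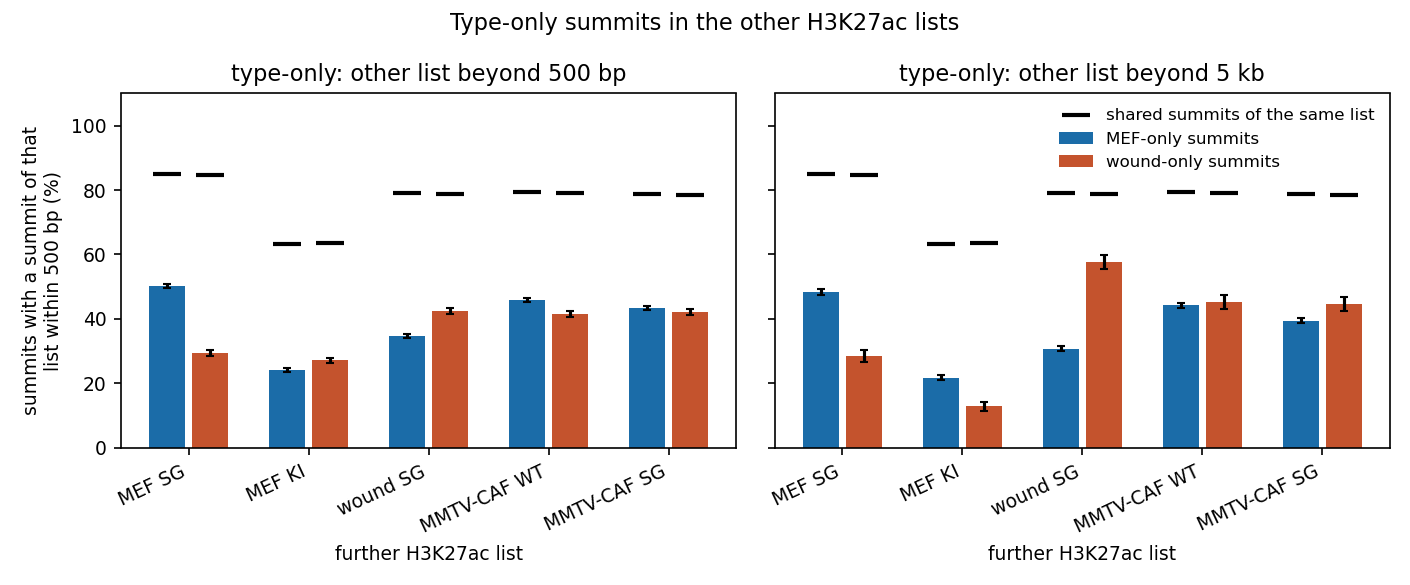
Share of MEF-only and wound-only summits (bars, percent, y axis) with a summit within 500 bp in each further H3K27ac list (x axis), with the other WT list beyond 500 bp (left) or beyond 5 kb (right); error bars are Wilson 95% intervals for counting error and black dashes the shared summits of the same WT list. MEF-only summits stand at 50.1% in MEF SG and 34.7% in wound SG, wound-only summits at 42.4% in wound SG and 29.5% in MEF SG, and the dashes lie above the bars in every list.

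By gene, 12968 protein-coding loci held a summit in either WT list, and a locus was counted as richer in 1 cell type when its type-only summits outnumbered those of the other by 3 or more. This was so for 1558 loci in MEFs (12% of all) and for 457 in wound-healing fibroblasts (3.52%). With lists of equal size the split turned to 680 MEF-richer (5.41%) and 815 wound-richer loci (6.49%), so the direction of the split depended on list length and is not read further. The SG pair gave 1053 (7.69%) and 942 (6.88%) of 13692 loci. With the other list beyond 5 kb, 1106 (8.53%) and 113 (0.871%) loci met the call in the WT pair and 518 (3.78%) and 507 (3.7%) in the SG pair. Counted over gene bodies with 10 kb on either side, 1400 (9.97%) and 636 (4.53%) loci met it. Of the 1558 MEF-richer loci, 498 (32.0%) met the same call in the SG pair and 168 (10.8%) the opposite call, and of the 457 wound-richer loci 151 (33.0%) met the same and 56 (12.3%) the opposite. The named loci were selected for size, strong summits, runs or list membership, and some for a difference of the same direction in both pairs. Of these, 45 of 95 MEF-richer and 18 of 55 wound-richer loci kept their call under every alternative that was tried on them.

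The locus with the most MEF-only summits was Dlc1, a GTPase-activating protein gene on chromosome 8 (37630805 to 38015490). It held 41 summits in WT MEFs, 11 in WT wound-healing fibroblasts, 31 in MEF SG, 20 in MEF KI and 29 in wound SG. With 35 MEF-only and 4 wound-only summits the WT libraries were far apart, whereas the SG libraries were nearly level. Sorbs2, which encodes a scaffold protein of actin fibres, held 30 summits in WT MEFs against 1 in WT wound-healing fibroblasts, but also only 2 in MEF SG, 9 in MEF KI and 5 in wound SG. WT MEFs therefore stood apart from the other MEF libraries at Sorbs2. Sema3a, a secreted axon-guidance factor gene, held 33 and 8 summits in the WT pair and 29 and 35 in the SG pair. Lmo7 held 27 in WT MEFs, 4 in WT wound-healing fibroblasts, 10 in MEF SG and 4 in wound SG. Sh3kbp1, an adaptor gene on chromosome X, held 22 and 1 summits in the WT pair and 18 and 18 in the SG pair.

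Among the loci with the largest MEF excess, several held it in the SG pair too. Slc24a3, an exchanger of sodium, potassium and calcium, held 21 summits in WT MEFs, 2 in WT wound-healing fibroblasts, 15 in MEF SG, 8 in MEF KI and 1 in wound SG. Slc1a3 held 19, 1, 8, 9 and 0 in the same order. At both loci the 3 MEF libraries lay above both wound libraries. Efemp1, which encodes the matrix glycoprotein fibulin-3, held 17 summits in WT MEFs and 1 in WT wound-healing fibroblasts, and 15 and 0 in the SG pair, but 0 in MEF KI. The single wound summit of Efemp1 lay at its promoter, where WT MEFs had none. In the SG pair the promoter summit was in MEF SG and not in wound SG. An H3K4me3 region of 1483 bp covered the Efemp1 TSS in WT wound-healing fibroblasts. H3K4me3 was listed there in wound SG too, and not in WT MEFs, MEF SG or MEF KI. This promoter mark was thus on the wound side, opposite to the summit count. The MEF KI library did not share the summit pattern of the other MEF libraries at Efemp1. Other loci with a large MEF excess in both pairs were Kcnab1, a potassium channel subunit gene (differences of 17 and 14 summits), Akap6, a kinase anchoring gene (17 and 10), Lhfpl2 (14 and 16), Cdk14, a cyclin-dependent kinase gene (13 and 14), and Inpp4b, a phosphoinositide phosphatase gene (13 and 12).

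Banp, which encodes a nuclear matrix protein, was among the loci with the most wound-only summits. It held 13 summits in WT MEFs, 44 in WT wound-healing fibroblasts, 14 in MEF SG, 4 in MEF KI and 18 in wound SG. WT wound-healing fibroblasts were above every other MEF and wound library at Banp, and the wound SG library lay only slightly above MEF SG. Zmiz1, a transcriptional coregulator gene, held 23, 47, 38, 24 and 43 in the same order. Col1a2, the second chain of type I collagen, held 14, 35, 15, 19 and 10, so that wound SG was the lowest of the 5.

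Kdr was a wound-richer locus in both pairs. It held 2 summits in WT MEFs, 15 in WT wound-healing fibroblasts, 2 in MEF SG, 3 in MEF KI and 18 in wound SG. Both wound libraries lay above all 3 MEF libraries, and a promoter summit was present in both wound libraries and in neither the WT nor the SG MEF library. Kdr is a defining gene of endothelium. Of the other endothelial markers in the WT pair, Vwf held 5 MEF and 1 wound summits, Cdh5 6 and 4, Tek 2 and 0 and Pecam1 1 and 0, and Eng, also expressed in endothelium, held 2 and 10. The part of endothelial cells in the Kdr values was not tested. Etv6, an ETS-family repressor gene, held 13, 24, 10, 9 and 32 in the order of libraries used above. Thbs2, which encodes the matricellular protein thrombospondin-2, held 22, 31, 7, 4 and 28, and Greb1, an oestrogen-responsive gene, held 0, 8, 0, 0 and 17. In these 3 the wound libraries also lay above every MEF library.

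**Figure D3:**
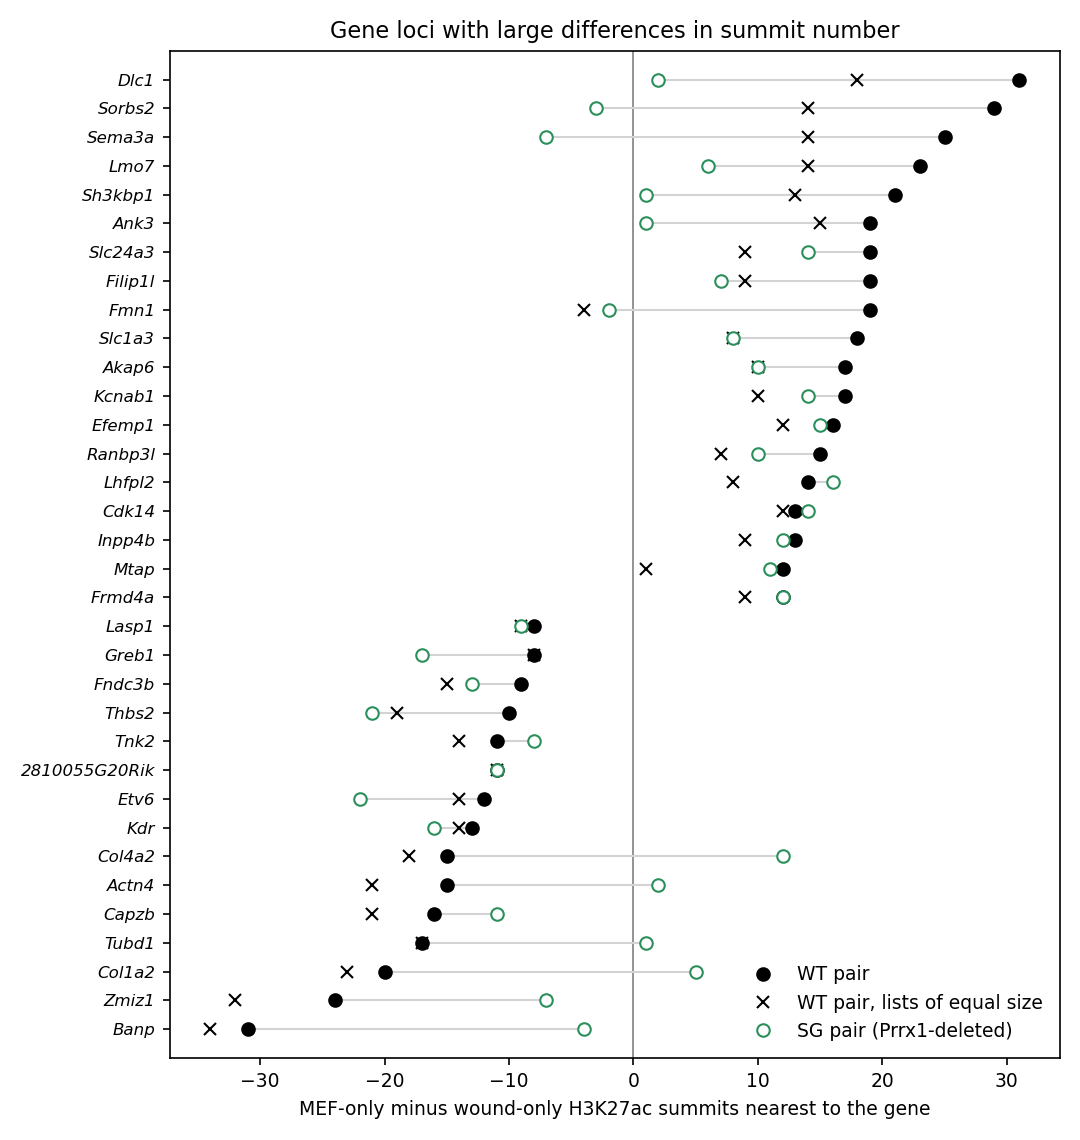
MEF-only minus wound-only H3K27ac summits (x axis) at gene loci (y axis): loci with the largest differences in the WT pair in either direction among those reported, and further loci with a large difference of the same direction in both pairs. Filled circles are the WT pair, crosses the WT pair with lists of equal size and open circles the SG pair, each from 1 library per cell type; Slc24a3, Efemp1 and Kdr keep their side in all 3, while Col1a2 and Col4a2 cross 0 in the SG pair and Fmn1 is below 0 in both other measures.

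**Figure D4:**
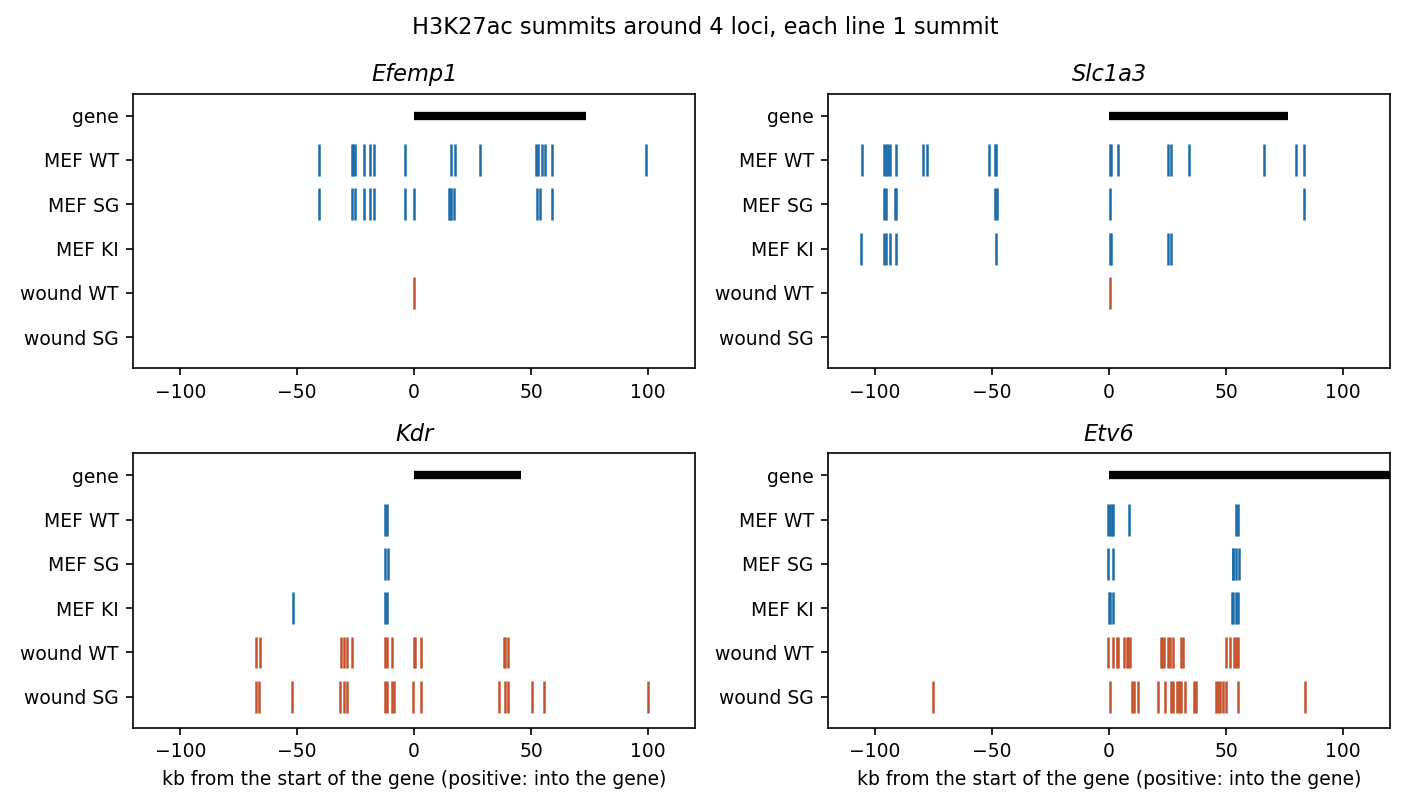
Position of H3K27ac summits (each line 1 summit) around Efemp1, Slc1a3, Kdr and Etv6 in the 3 MEF lists and both wound lists (rows); the x axis is the distance from the gene start in kb, positive into the gene, and the black bar is the gene, which for Etv6 runs beyond the plotted range. Efemp1 shows summits in the rows of MEF WT and SG and 1 at its start in WT wound-healing fibroblasts, while Kdr shows more summits in both wound rows than in the MEF rows.

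Type-only summits also came in runs with no summit of the other list between them. There were 1805 runs of 3 or more MEF-only summits with neighbours within the distance customary for stitching enhancers into clusters, holding 7088 summits, and 580 wound-only runs holding 2186. The longest MEF-only run, of 15 summits over 40.8 kb, lay on chromosome 11 across Bcl6b, Slc16a11 and Slc16a13, and the same interval held 13 summits in MEF SG, 7 in MEF KI and 3 in wound SG. The run of 14 at Lims1, an adhesion adaptor gene, held 3 in MEF SG and 10 in wound SG. A run of 13 in the intergenic side of Antxr2 held 7 in MEF SG, 1 in MEF KI and 2 in wound SG. The wound-only runs were led by Banp (14 summits over 37.3 kb), Col1a2 (13 over 16.3 kb) and an 11-summit run inside Vmp1 nearest to Tubd1. The Banp interval held 2 summits in MEF SG, 0 in MEF KI and 4 in wound SG, the Col1a2 interval 0, 1 and 0, and the Vmp1 interval 7, 7 and 3, so wound SG held no summit in the Col1a2 run and fewer than MEF SG in the Vmp1 run.

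The groups below were lists of genes by function. Over all loci the median difference between MEF-only and wound-only summits was 0, and each list was read against the 12% MEF-richer and 3.52% wound-richer shares of all loci. The count with lists of equal size, for which these shares were 5.41% and 6.49%, is given for each list, and the Hox genes are described by cluster. Counts in the SG pair are over all members of a list, and so include 1 gene each without a summit in either WT list among the skeletal lineage genes (Comp), the BMP pathway (Gdf10) and the regional identity factors (Gata4).

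Inflammatory genes were mostly richer in MEFs in the lists as deposited, and less so with lists of equal size. Of 24 with a summit, 14 were richer in MEFs and 2 in wound-healing fibroblasts, 7 and 4 with lists of equal size, and 7 and 1 in the SG pair, and their median difference was 3 summits towards MEFs. Ptgs2, the inducible cyclooxygenase, held 22 summits in WT MEFs and 7 in WT wound-healing fibroblasts, and 23 and 20 in the SG pair. Cxcl12, a chemokine that attracts cells bearing CXCR4, held 9 and 2 in the WT pair and 11 and 4 in the SG pair, and Il1r1, the interleukin-1 receptor, held 8 and 1, then 8 and 3. Cxcl5, a chemokine for neutrophils, held 14 and 4, then 9 and 6. On the wound side stood Lif, a cytokine of the interleukin-6 family, with 10 and 16, and Socs3, a feedback inhibitor of cytokine signalling, with 11 and 16. These 4 of the 14 MEF-richer genes met the call in the SG pair as well. Ptgs2 and Cxcl5 did so with a difference of 3 summits, the least that meets it. Other MEF-richer genes of the list did not meet it there, such as Ccl2 and Vcam1, each with a difference of 0.

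Matrix genes divided by gene, with 12 of 36 richer in MEFs and 10 in wound-healing fibroblasts. With lists of equal size these became 5 and 13, and in the SG pair 10 and 6. The median difference was 1 summit towards MEFs, and -1 with lists of equal size. Of the wound-richer genes, Col1a2 had 24 wound-only against 4 MEF-only summits, Col5a1 18 against 7, Col1a1 11 against 3, the CCN-family gene Cyr61 8 against 1, and Sparc, a collagen-binding glycoprotein, 9 against 3. The basement membrane collagen Col4a2 had 18 against 3. Of these, Col1a1, Col1a2, Col4a2 and Sparc had the opposite direction in the SG pair, where wound SG held 10, 10, 15 and 5 summits against 17, 15, 28 and 10 in MEF SG. The thrombospondin genes kept their direction: Thbs2 held 7 in MEF SG and 28 in wound SG, and Thbs1 held 3 and 13. On the MEF side, Nov, a CCN-family matricellular gene, held 17 and 1 summits in the WT pair and 3 and 5 in the SG pair, Col5a2 held 17 and 5, Tnc (tenascin-C) 14 and 4, Spp1 (osteopontin) 15 and 7 and Dcn 9 and 0. None of these 5 met the call in the SG pair. Of the other MEF-richer matrix genes, Col6a3, a chain of type VI collagen, held 13 and 5 summits and then 13 and 2, and Col18a1 held 7 and 3 and then 13 and 8, both meeting the call in the SG pair.

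Genes of the TGF-beta pathway were 5 MEF-richer and 6 wound-richer of 23, 1 and 8 with lists of equal size and 5 and 5 in the SG pair. The median difference was -1, towards wound-healing fibroblasts, in the WT pair as deposited and with lists of equal size. The ligands Tgfb2 (12 MEF and 7 wound summits) and Tgfb3 (10 and 4) and the receptor Tgfbr2 (10 and 6) were on the MEF side. With lists of equal size their differences were 2, 0 and -1, so none of them met the call. The co-receptor Eng held 2 and 10 in the WT pair and 2 and 6 in the SG pair, and its promoter summit was present in both wound libraries and neither WT nor SG MEFs. The signal transducer Smad3 held 31 and 41, with the reverse order of 34 and 22 in the SG pair. Genes of the contractile apparatus were 5 and 5 of 21, 5 and 7 with lists of equal size and 3 and 6 in the SG pair, with Palld (28 and 13), Mylk (15 and 1) and Vcl (19 and 7) on the MEF side and Myh9 (20 and 33), Actn1 (12 and 18) and Tpm1 (15 and 21) on the wound side. In the SG pair, Actn1 held 15 and 21, the same direction, and Tpm1 held 22 and 18 and Palld 14 and 20, the opposite one.

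In the BMP pathway 5 of 17 genes were MEF-richer and 1 wound-richer, 4 and 3 with lists of equal size and 5 and 3 in the SG pair. The antagonists Bmper (21 MEF and 4 wound summits), Fst (7 and 0) and Nog (4 and 1) and the receptor Bmpr1b (12 and 2) were on the MEF side, and the target Id3 (7 and 12) on the wound side. Bmpr1b held 8 and 3 in the SG pair, whereas Bmper held 9 and 11 and Fst 5 and 6. In the Wnt pathway 4 of 20 were MEF-richer and 0 wound-richer, 1 and 0 with lists of equal size and 3 and 2 in the SG pair. The nuclear effector Tcf7l2 held 21 and 11 summits, and 24 and 14 in the SG pair, and the others were the antagonist-family gene Dkk3 (8 and 3), the agonist Rspo2 (4 and 1) and the receptor Ror2 (4 and 1).

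Growth factor genes were 8 MEF-richer and 4 wound-richer of 25, 7 and 6 with lists of equal size and 4 and 4 in the SG pair. The receptor Fgfr2 held 10 summits in WT MEFs, 0 in WT wound-healing fibroblasts, 13 in MEF SG, 4 in MEF KI and 4 in wound SG, although a promoter summit, nearest to the start site of another gene, was listed within 1 kb in both WT lists. Its paralogue Fgfr1 was on the other side with 9 and 17, and 11 and 15 in the SG pair. The ligands Fgf7 (16 and 7), Nrg1 (18 and 9), Igf1 (13 and 4), Kitl (9 and 2) and Pdgfc (8 and 2) were on the MEF side, and the receptor Pdgfrb (7 and 11) and the ligands Fgf1 (2 and 5) and Pdgfa (1 and 4) on the wound side. Proteases and their inhibitors were 5 and 0 of 15, 3 and 1 with lists of equal size and 2 and 1 in the SG pair, with Adam12 (12 and 3), Plau, the urokinase gene (9 and 2), and Adamts5 (9 and 4). AP-1 genes were 1 and 2 of 11, the same counts with lists of equal size and 1 and 0 in the SG pair. Jun held 16 and 10 in the WT pair and 21 and 8 in the SG pair, and Fosl2 held 4 and 12, then 6 and 8.

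**Figure D5:**
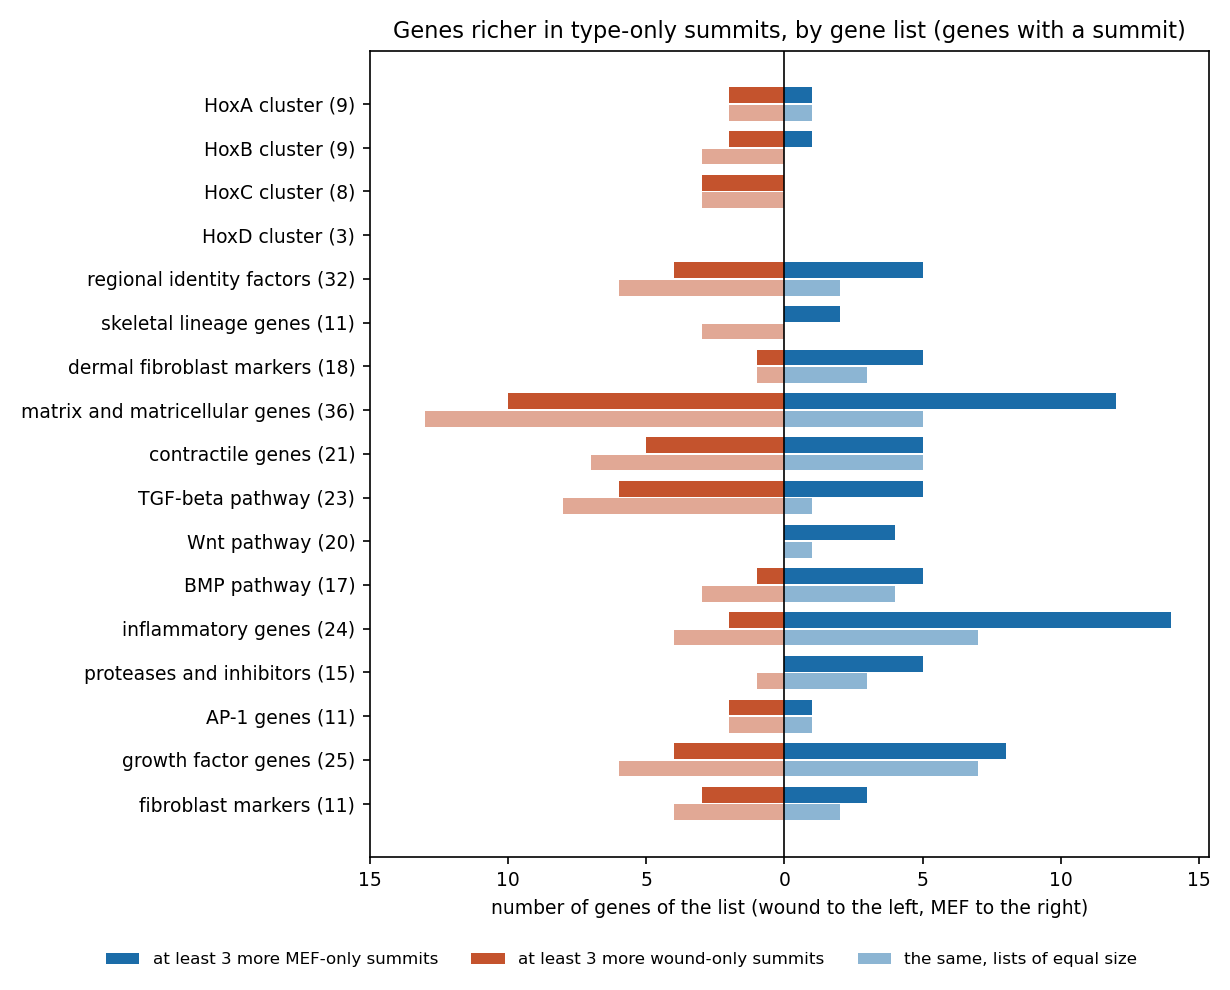
Number of genes in each functional list (x axis, MEF to the right in blue and wound to the left in red) that were richer by 3 or more type-only summits, with the number of genes holding a summit in brackets; dark bars are the WT lists as deposited and pale bars lists of equal size. Inflammatory genes show 14 against 2, becoming 7 against 4, and matrix genes 12 against 10, becoming 5 against 13.

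Factors of position and lineage divided between the cell types. Of 32 regional identity factors with a summit, 5 were MEF-richer and 4 wound-richer, 2 and 6 with lists of equal size and 3 and 9 in the SG pair. Wt1, a transcription factor of mesothelium and the urogenital ridge, held 5 summits in WT MEFs, 1 in MEF SG and 0 in WT wound-healing fibroblasts, wound SG and MEF KI. Osr1, a factor of intermediate mesoderm, held 4 and 1 in the WT pair and 5 and 2 in the SG pair, and Lhx9, a LIM homeodomain factor, held 3 and 0, then 3 and 1. On the wound side were Emx2 (5 and 11, but 7 and 4 in the SG pair), Foxc2 (7 and 11) and Gata6 (3 and 7, and 4 and 7 in the SG pair). Skeletal lineage genes were 2 MEF-richer and 0 wound-richer of 11, namely Runx1 (15 and 11) and Runx2 (21 and 13), and the counts were 0 and 3 with lists of equal size and 4 and 2 in the SG pair. Dermal fibroblast markers were 5 and 1 of 18 and 3 and 1 with lists of equal size, but 3 and 6, the opposite balance, in the SG pair. Among them Dlk1, a marker of embryonic and reticular fibroblasts, held 16 and 4, and 13 and 6 in the SG pair, Zfp521 held 16 and 5, then 10 and 3, and Cd34 held 18 and 5, then 13 and 20. Lrig1, a marker of papillary fibroblasts, held 18 and 21, then 21 and 41.

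The Hox clusters differed by cluster. Across the whole interval, HoxA held 31 summits in WT MEFs and 30 in WT wound-healing fibroblasts, and HoxD held 9 and 5. HoxB held 25 and 43, and HoxC 8 and 26, with 22 wound-only and 4 MEF-only summits in HoxC. In the SG pair HoxB held 21 and 27 and HoxC 11 and 12, so the wound excess in HoxC was that of the WT library. MEF KI held 30 summits in HoxA and 19 in HoxD but 1 in HoxB and 1 in HoxC. Only its HoxA total was thus close to those of WT MEFs and MEF SG. Within HoxA the genes differed, as Hoxa10 held 9 summits in MEF KI, 1 in WT MEFs and 3 in MEF SG. Hoxa11 held 5, 0 and 0 in the same order, and Hoxa4 held 1, 6 and 2. By gene, the MEF-richer and wound-richer counts were 1 and 2 of 9 in HoxA, 1 and 2 of 9 in HoxB, 0 and 3 of 8 in HoxC and 0 and 0 of 3 in HoxD, and with lists of equal size 1 and 2, 0 and 3, 0 and 3, and 0 and 0. Hoxc10 held 0 summits in WT MEFs and 6 in WT wound-healing fibroblasts but 1 and 1 in the SG pair. Hoxc4 held 2 and 7, then 1 and 5, Hoxa10 held 1 and 6, then 3 and 1, and Hoxa4 held 6 and 1, then 2 and 4. An H3K4me3 region covered the TSS of Hoxc10 in both WT cultures.

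At promoters, 11194 genes had an H3K27ac summit within 1 kb of a TSS in either WT list, of which 611 had it in MEFs only (5.46%) and 368 in wound-healing fibroblasts only (3.29%). With lists of equal size the order turned, to 445 and 546 genes. Most of these genes carried H3K4me3 in both cultures: 66.3% of the MEF-only genes (62.4 to 69.9%) and 71.2% of the wound-only genes (66.4 to 75.6%), against 96.7% of the 10215 genes with a summit in both. H3K4me3 alone was type-only at 325 (2.62%) genes in MEFs and 658 (5.31%) in wound-healing fibroblasts of 12397. In the SG pair, promoter summits were in MEFs only at 658 genes (5.63% of 11696) and in wound-healing fibroblasts only at 479 (4.1%). There, 29.3% of the MEF-only genes of the WT pair were again MEF-only and 6.71% wound-only. Of the wound-only genes, 32.1% were again wound-only and 10.1% MEF-only.

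Both marks together were listed in 1 culture alone at few promoters. This was so for 71 genes in MEFs (0.558% of 12715 genes) and for 41 in wound-healing fibroblasts (0.322%). Of the 71 MEF genes, 38 held both marks in MEF SG and 15 did so with neither mark in wound SG. Of the 41 wound genes, 29 held both marks in wound SG and 25 did so with neither mark in MEF SG. The 71 included Dcn, Cd34, Wt1 and Osr1. At Dcn, the strongest promoter summit in WT MEFs had a −log10 p of 39.8 and the H3K4me3 region was 1956 bp long. Both marks were present at Dcn in MEF SG and absent from wound SG, while at Cd34 (50.2 and 5586 bp) wound SG held both. The 41 included Mab21l1 (27.6 and 2187 bp), a developmental gene, and Pgr (12.6 and 4022 bp), the progesterone receptor gene, which held both marks in wound SG and neither in MEF SG. MEF KI held both marks at Mab21l1 and neither at Pgr or Dcn. At Msx2 (18.2 and 2435 bp), a homeodomain factor of limb and skull, wound SG held H3K27ac without H3K4me3. These examples were chosen after their values were seen.

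Prrx1 binding was sparse at type-only summits in both cultures, with 3048 Prrx1 summits in the MEF list and 5698 in the wound list, which reached lower −log10 p values than the H3K27ac lists. Of distal MEF-only summits, 2.33% (2.12 to 2.55%) had a MEF Prrx1 summit within 500 bp, against 0.912% (0.727 to 1.14%) of distal wound-only summits and 1.80% of distal shared MEF summits. For wound Prrx1 summits, these shares were 3.32% (3.08 to 3.59%) of distal MEF-only, 3.96% (3.55 to 4.40%) of distal wound-only and 7.14% of distal shared MEF summits. MEF Prrx1 summits thus met MEF-only more often than wound-only summits, whereas the intervals for wound Prrx1 summits overlapped, and wound Prrx1 summits met shared summits most often.

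The letters around distal summits differed between the cell types for some words and little for others. Within 100 bp of the summit, on both strands, the homeodomain word TAATTA lay at 3.42% (3.17 to 3.68%) of distal MEF-only and 2.40% (2.09 to 2.76%) of distal wound-only summits, with 6.54% and 4.26% at positions 2 kb to either side. The posterior Hox word TTTATNG lay at 7.74% and 5.66%. The GC box GGGCGG was more frequent in wound-only windows, at 4.48% against 2.99%, but so it was in their flanks, at 6.06% against 2.92%. The Meis word was also more frequent in wound-only windows, at 16.7% against 14.9%. With the other list beyond 5 kb, TAATTA lay at 3.43% of distal MEF and 1.56% of distal wound summits. TTTATNG lay at 7.92% and 4.36% of these, and the GC box at 2.58% and 5.14%. The AP-1 word TGANTCA lay at 5.57% (5.25 to 5.90%) of all distal MEF-only and 4.89% (4.44 to 5.38%) of all distal wound-only summits. In their flanks it lay at 6.62% and 6.12%. Words rich in A and T were thus more frequent on the MEF side and the GC box on the wound side, beside the difference in GC content given above, whose part in these shares was not tested. Of the 12 motifs searched, the other words not described so far were Sox and Tcf (CCTTTGT) at 4.86% and 4.50%, C/EBP (TTGCNNAA) at 7.96% and 6.92%, and the nuclear factor I palindrome at 0.0366% and 0.0246%. The words given above for all distal windows lay at 41.5% of distal MEF-only and 38.7% of distal wound-only summits for CATNTG. The shares were 2.90% and 2.39% for GTAAACA, 11.9% and 11.8% for GGAATG, and 14.7% and 15.4% for TGTGGT.

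Chromosomes did not contribute equally. The ratio of MEF to wound summits ran from 1.11 on chromosome 5 to 1.98 on chromosome X, where WT MEFs held 1197 summits and WT wound-healing fibroblasts 604, and it was 1.78 on chromosome 13. On chromosome X, 59.8% of MEF summits were MEF-only and 21.9% of wound summits wound-only. Chromosome Y held 3 summits in WT MEFs, 0 in WT wound-healing fibroblasts and 3 in each SG list, and its genes Ddx3y and Kdm5d were among the 71 with both marks in WT MEFs only. In the SG pair the X chromosome held 922 and 993 summits, a ratio of 0.928. The MEF excess at the X-linked gene Sh3kbp1 in the WT pair alone is to be read beside these values, and the number of chromosomes in the cultures was not tested.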

How the data were processed

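H3K27ac ChIP-seq was compared between WT MEFs and WT wound-healing fibroblasts, 1 library each. Per the submitters' processing notes and the methods, the authors used Trimmomatic for trimming, Bowtie for alignment to mm9, Picard and samtools for read handling, deepTools, and MACS2 for peaks at a p cutoff of 1e-05. Per the file contents, the deposited H3K27ac and Prrx1 lists give 1-bp summits with the −log10 p of the caller in the score column, and the deposited H3K4me3 lists give broad regions, each with the caller's fold enrichment. The score is comparable only as a rank within a list. Some wound summits share a score, and the Prrx1 lists reach lower −log10 p values than the H3K27ac lists. Widths and read depth of the H3K27ac libraries were not given, so depth is unknown and a summit that is not listed may lie just under the threshold.

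Summits were matched within 500 bp and given to the nearest of 46015 TSSs of 22359 protein-coding genes (GENCODE vM1, NCBIM37), within 100 kb for loci and 1 kb for promoters. Where genes start close together, the nearest TSS can belong to a neighbour. A gene counted as having H3K4me3 where a region covered a TSS. Genes were named when they were among the 10 largest differences in either direction, list members differing by at least 3 summits, nearest to the 5 strongest distal or promoter type-only summits, in the 3 longest runs, or Prrx1 and the fibroblast markers. Others named were chosen after their values were seen, among them loci with a large difference of the same direction in both pairs. A few genes that met this rule are not reported here. The members and the gene lists were chosen with earlier results of these data known, so no list is independent evidence. With 1 library per group no test was made. The scripts ran under matplotlib 3.10.9, pandas 2.3.3, Python 3.11.15, pysam 0.24.0, numpy 2.4.6 and scipy 1.17.1, and counting and motif matching were tested on simulated data. Alternatives were other matching distances, a minimum score, lists of equal size, other promoter definitions, gene bodies in place of the nearest TSS and a larger difference. Inputs, MMTV-CAF H3K4me3 and MMTV-CAF Prrx1 lists were not used here.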

Additional observations from a re-analysis of the deposited data

Results flagged for a closer look

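At 18 of 150 named loci the WT pair and the SG pair each met the call of 3 or more summits, but in opposite directions. The same call in both pairs was met by 40 MEF-richer and 27 wound-richer named loci. Some of these had been named because they differed in the same direction in both pairs, so these counts are raised by selection. Over all called loci the same call in the SG pair was met by 32.0% of MEF-richer and 33.0% of wound-richer loci. The opposite call was met by 10.8% and 12.3%. The values are MEF-only minus wound-only summits, first in the WT pair and then in the SG pair, so that negative values mean more wound-only summits. Richer in MEFs in the WT pair and in wound-healing fibroblasts in the SG pair were Cd34 (13 and -6), Col8a1 (4 and -5), Dpp4 (3 and -3), Fgf7 (9 and -3), Has2 (5 and -5), Itgb1 (5 and -5), Palld (16 and -6), Runx2 (8 and -3), Sema3a (25 and -7) and Sorbs2 (29 and -3). Richer in wound-healing fibroblasts in the WT pair and in MEFs in the SG pair were Col1a1 (-8 and 6), Col1a2 (-20 and 5), Col4a2 (-15 and 12), Emx2 (-6 and 3), Hoxc8 (-3 and 4), Smad3 (-9 and 11), Sparc (-6 and 5) and Tpm1 (-5 and 4). Here stand the collagen chains Col1a1, Col1a2 and Col4a2, whereas Col5a1, Thbs1 and Thbs2 were wound-richer and Col6a3 MEF-richer in both pairs. Each pair has 1 library per cell type, and the difference between the pairs was not tested. Library and Prrx1 genotype differ between the pairs together and cannot be told apart.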

How the results depend on the processing

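With 250 bp as the shared distance, the shared share was 45.0% of MEF and 60.5% of wound summits, the promoter share 16.0% of MEF-only and 25.8% of wound-only summits, MEF-only summits were in MEF SG in 45.8% and in wound SG in 29.8%, and wound-only summits in MEF SG in 23.8% and in wound SG in 34.9%. With 1 kb these values were, in the same order, 61.4%, 82.0%, 6.01%, 12.8%, 58.6%, 41.2%, 35.4% and 57.5%, and with 5 kb, added after seeing the data, 72.1%, 93.7%, 5.60%, 14.4%, 48.3%, 30.7%, 28.4% and 57.7%, with 113 wound-richer loci. With a −log10 p of at least 10, 51.2% and 74.1% were shared, 14.7% and 25.4% of type-only summits were at promoters, 53.0% of MEF-only summits were in MEF SG and 230 loci were wound-richer. With lists of equal size, 62.7% and 63.5% were shared, 14.7% of MEF-only summits were at promoters, the shares in MEF SG and wound SG were 49.1% and 31.7% for MEF-only and 26.4% and 38.1% for wound-only summits, 680 loci were MEF-richer and 815 wound-richer, and genes with a promoter summit in 1 list were 445 for MEFs and 546 for wound-healing fibroblasts, in place of 611 and 368. Promoters of 2.5 kb gave 17.9% and 34.8%, and the TSSs of all genes 14.3% and 25.2%. A difference of at least 5 summits left 653 and 191 loci. The order of own before other SG list held under every setting that touches it, and genes with a promoter summit did not depend on the shared distance.

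Of 150 named loci, 150 kept their call with 250 bp, 141 with 1 kb, 119 with the minimum score, 113 with equal lists, 123 by gene body and 97 with 5 kb. MEF-only minus wound-only summits turned sign, among the loci reported, with the minimum score at Lrig1 (3), Ccl2 (-1), Maff (1) and Pdgfrb (1), with equal lists at Runx1 (-3), Tgfbr2 (-1), Ccl2 (-1), Csf1 (-4), Vcam1 (-1) and Fmn1 (-4), by gene body at Tgfb3 (-2), Adamts5 (-1) and Jun (-1), and with 5 kb at Gata6 (1), Cyr61 (1) and Smad6 (-2). The cause was not tested. No paired analysis was possible because every group has 1 library and the labels give no replicate numbers. No replicate could be left out for the same reason. Unknown depth limits every absence: a summit missing from the shorter wound list may lie under its threshold.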

Other observations

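The MEF KI list differed from both other MEF lists at some of the regions described here. It was close to MEF SG at Slc1a3 (19 summits in WT MEFs, 8 in MEF SG and 9 in MEF KI) and to both at Kdr (2, 2 and 3). In the HoxA cluster the totals were close (31, 29 and 30), but Hoxa10 held 1, 3 and 9 summits and Hoxa11 held 0, 0 and 5. MEF KI listed 29325 summits, against 44918 in WT MEFs and 43019 in MEF SG. It held 0 summits at Efemp1, where WT MEFs held 17 and MEF SG 15, and 1 summit each in the HoxB and HoxC clusters, where WT MEFs held 25 and 8. In the HoxD cluster it held 19, above WT MEFs with 9, MEF SG with 6, wound SG with 8 and MMTV-CAF WT with 4. At the matrix gene Col5a2 it held 23 summits against 17 in WT MEFs and 9 in MEF SG. At Trp63, a keratinocyte marker, MEF KI held 16 summits and wound SG 24, against 5 in each WT list and 1 in MEF SG.

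MMTV-CAF WT resembled WT MEFs at some type-only loci and WT wound-healing fibroblasts at others. It held 18 summits at Efemp1 and 18 at Dcn, 0 at Slc24a3 and Wt1, 39 at Col1a2, 2 at Kdr and 22 across the HoxC cluster.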
